A study of Mus musculus with 4 samples.

Results

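The mouse genes for cytoplasmic translation initiation and elongation factors were compared between the livers of DBA/2J and C57BL/6J mice. They were taken by symbol, as every gene beginning with Eif1 to Eif6 or with Eef1 or Eef2. The 4 Eif2ak kinase genes and 7 symbols carrying -ps, the mark of a pseudogene, were left out. This gave 62 of the 50584 gene symbols in the files. DBA/2J and C57BL/6J are inbred laboratory strains, and each was represented by 2 libraries of poly(A)-selected liver RNA, taken as separate mice because the series' text speaks of 2 animals per strain. All 4 mice were wild-type males aged 14 weeks on a chow diet, with no treatment labelled, so the groups differ in strain alone as far as the labels say. Nothing states whether the mice were housed or processed together, and p-values measure only the spread between these libraries.

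Translation of an mRNA starts when the small ribosomal subunit, carrying the initiator tRNA on the GTP-binding factor eIF2 and held by the scaffold eIF3, is brought to the mRNA cap by the eIF4 factors and scans to a start codon. The exchange factor eIF2B reloads eIF2 with GTP, and eIF5B joins the large subunit. Elongation then runs on eEF1A, which delivers aminoacyl-tRNA, on the eEF1B complex, which reloads eEF1A with GTP, and on eEF2, which moves the ribosome along by a codon. Hepatocytes secrete most plasma proteins, and the liver's rate of protein synthesis follows feeding and amino acid supply.

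The libraries held 48096706 to 52520737 counts, and values are given below as CPM, the count scaled to a common library total by the TMM method, for replicates 1 and 2 of each strain in that order. A count of 3, the floor used for a gene at 0, was worth 0.0542 to 0.0622 CPM. The hepatocyte markers Alb, Apoa1, Ttr, Tat, Cps1 and Hnf4a summed to 80048 to 92433 CPM, so the liver label holds in every library. The sums of Kupffer cell markers ran from 73.3 to 90.9 CPM and those of sinusoidal endothelial markers from 101 to 136 CPM, overlapping between strains. Within these lists Marco (log2 -2.97, adjusted p = 0.0238) and Lyve1 (log2 -1.16, adjusted p = 0.0177) were lower in DBA/2J and Stab2 was higher (log2 0.40, adjusted p = 0.042). Stellate cell markers summed to 199 and 254 CPM in DBA/2J and to 155 and 109 CPM in C57BL/6J. Among them Reln was called higher in DBA/2J (log2 1.30, adjusted p = 0.0045). Dcn, Rgs5, Lrat and Col1a1 were not called, with log2 values of 0.62, 0.74, 0.65 and 0.03. Acute-phase genes summed to 767 and 621 CPM in DBA/2J and to 5011 and 1173 CPM in C57BL/6J, so C57BL/6J replicate 1 stood apart. Replicate 2 of C57BL/6J also lay above both DBA/2J libraries, and Orm1 was called lower in DBA/2J (log2 -0.94, adjusted p = 0.0196). Without C57BL/6J replicate 1, Saa1, Saa2, Saa3, Lcn2, Orm1 and Orm2 still had log2 values between -0.71 (Orm1) and -1.38 (Saa3). What part these cell types and the acute-phase state play in the differences below was not tested. Values with C57BL/6J replicate 1 left out are given below. In bulk liver, fewer cells of a type and less RNA per cell cannot be told apart.

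Many initiation and elongation factor mRNAs were lower in DBA/2J liver, and few were higher. Of the 62 genes, 59 passed the filter on low counts and were tested. By edgeR's quasi-likelihood test, adjusted over all 15647 tested genes, 21 of these 59 (35.6%) were lower in DBA/2J and 2 (3.39%) were higher. Of the 2 higher genes, Eif3j2 passed the filter on its DBA/2J counts alone. Over all tested genes the shares called were 8.87% lower and 9.29% higher, 18.2% in all. The fitted log2 difference, DBA/2J over C57BL/6J, had a median of -0.24 over the 59 tested genes and of 0.01 over all tested genes. It lay below 0 in 44 of the 59 (74.6%), against 49.3% of all tested genes. Both DBA/2J libraries lay below both C57BL/6J libraries for 38 of the 62 genes, and above both for 8. The same separation held for 31.2% of all tested genes in the lower direction and 32.5% in the higher. All of these genes together took 0.982% and 0.991% of counts in DBA/2J and 0.9998% and 1.001% in C57BL/6J.

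**Figure D1:**
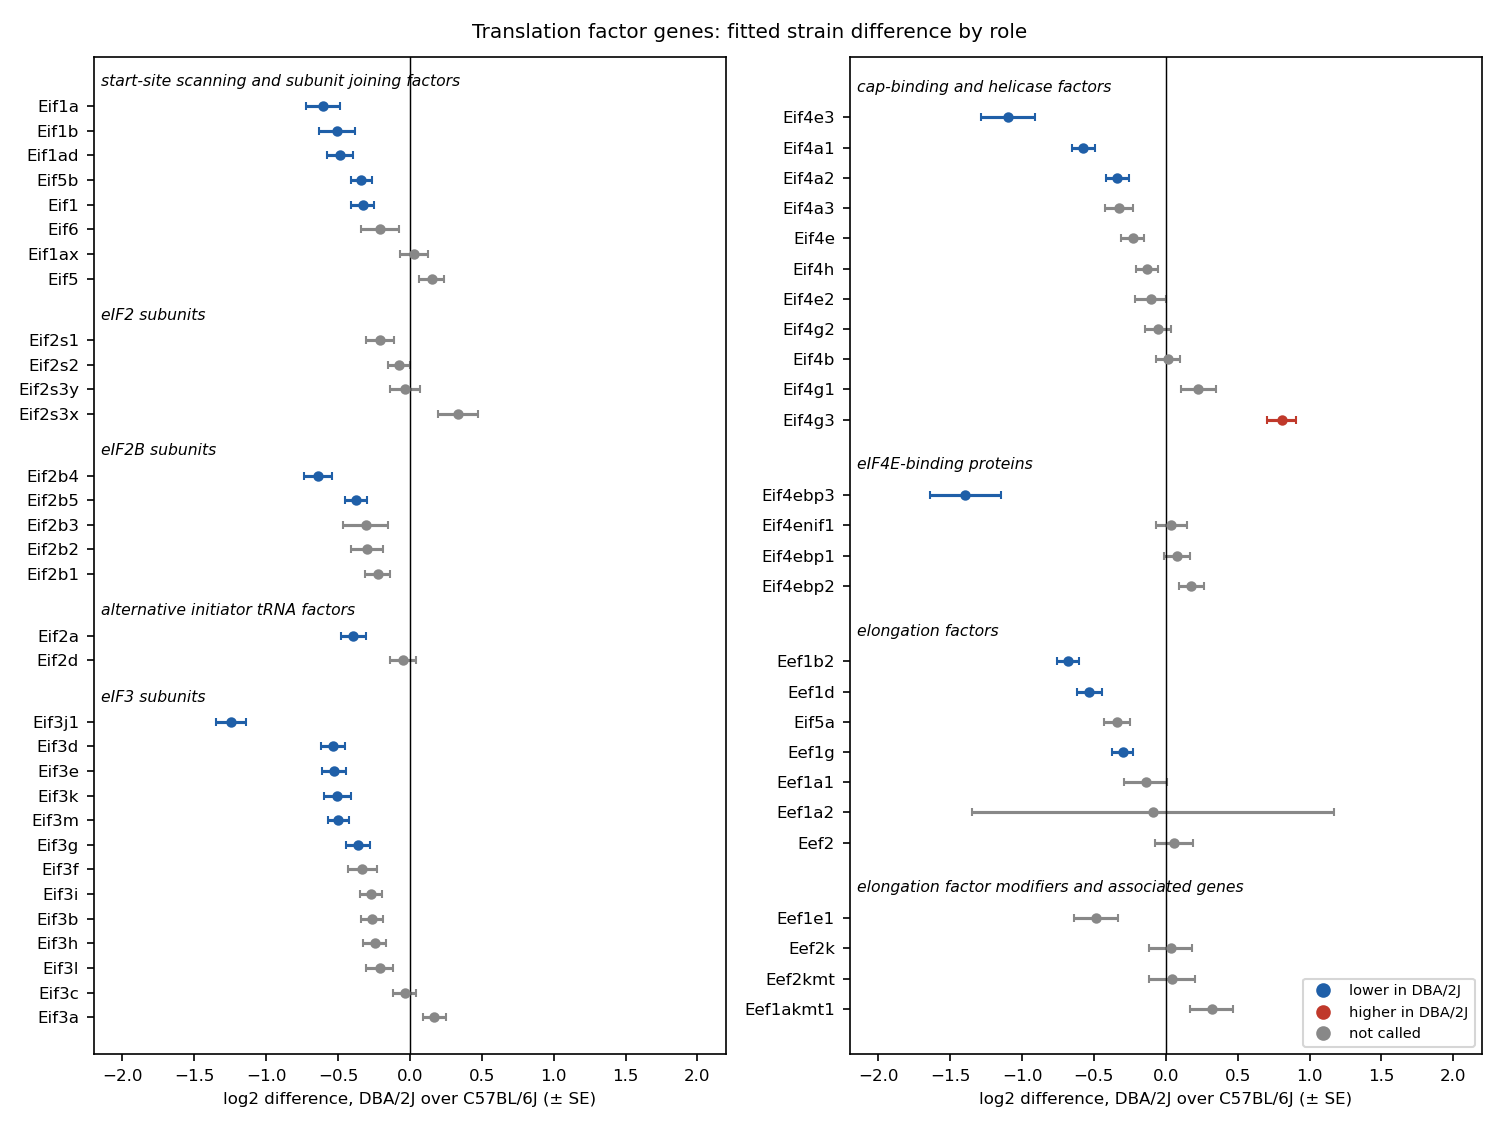
Fitted log2 difference (DBA/2J over C57BL/6J, with its standard error) of the tested factor genes, grouped by role; blue marks genes lower and red genes higher in DBA/2J at an adjusted p below 0.05, and grey the rest. Eif3j2, at 6.24, lies off the axis and is not drawn. Blue marks 5 of 8 scanning and joining factors, 6 eIF3 rows and 3 eEF1B subunits, and the 4 eIF2 subunits are grey.

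The promoters of 47 of the 62 genes, 15 of them lower in DBA/2J, were found in RefSeq's table of gene starts (GRCm38.p6) as 300-base windows that end 50 bases after each start. They were searched on both strands for CCGGAAGT, a site of ETS-family factors, for the palindrome CACGTG, the E-box of the MYC and USF families, and for TATAAA, the TATA box. None of these motifs contains another. CCGGAAGT was found in 8 of the 47 (17.0%), against 8.41% of the 10999 tested genes with a promoter in the table. CACGTG was found in 12 (25.5%, against 11.4%), and TATAAA in 5 (10.6%, against 9.51%). Of the 15 lower genes, 3 held CCGGAAGT (Eef1b2, Eif2b4, Eif3d), 3 held CACGTG (Eif1b, Eif3k, Eif4a1) and 0 held TATAAA. These are matches of letters in a window and say nothing of binding. The 5 stretches below, each of 50 bases before the RefSeq start and 20 from it, show the motifs in their setting, with the motif in capitals. The first 4 belong to genes that were lower in DBA/2J, and that of Eef2, whose level did not differ at the threshold, is shown for its TATA box. The windows are chr1:63176781-63176850 (plus strand), chr5:31193120-31193189 (minus), chr9:120492556-120492625 (plus), chr7:28981869-28981938 (minus) and chr10:81176581-81176650 (plus), in the order printed.
Eef1b2: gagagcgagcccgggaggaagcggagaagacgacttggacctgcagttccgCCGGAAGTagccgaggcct
Eif2b4: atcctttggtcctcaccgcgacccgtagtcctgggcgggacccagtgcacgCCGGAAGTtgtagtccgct
Eif1b: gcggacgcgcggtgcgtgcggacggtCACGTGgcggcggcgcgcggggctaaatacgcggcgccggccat
Eif3k: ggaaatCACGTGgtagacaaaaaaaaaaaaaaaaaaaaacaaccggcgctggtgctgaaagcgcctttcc
Eef2: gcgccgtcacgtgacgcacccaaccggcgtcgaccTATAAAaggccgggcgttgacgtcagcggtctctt
In Eef1b2 and Eif2b4 the ETS-type site begins at base 2 of the transcript, counting the start as 1. In Eif1b and Eif3k the E-box begins 24 and 44 bases before the start, and in Eef2 the TATA box begins 15 bases before it. The Eef2 stretch also holds the E-box letters, left in lower case.

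Among the factors that guide scanning and subunit joining, 5 of 8 were lower in DBA/2J and 0 higher, with a median log2 of -0.33. All 8 were tested, 5 at an unadjusted p under 0.05. Over all tested genes, 8.87% were called lower and 9.29% higher. Eif1, which keeps the scanning complex open until a start codon is met, read 245 and 237 CPM in DBA/2J and 299 and 306 CPM in C57BL/6J. Its log2 difference was -0.33 ± 0.08 (SE) with an adjusted p of 0.0436. It was also the most abundant of this group per length, at 115 CPM per kb of exon in DBA/2J and 144 in C57BL/6J. The paralog Eif1b, whose coding sequence matched that of Eif1 at 81.3% of aligned bases, read 14.4 and 13.5 CPM against 21.5 and 18.2 CPM (log2 -0.51 ± 0.12, adjusted p = 0.0438). In both genes the DBA/2J libraries lay below the C57BL/6J libraries.

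Eif1a and Eif1ax both encode eIF1A, the partner of eIF1 in scanning, from an autosome and from the X chromosome, and their coding sequences matched at 85.7% of aligned bases. Eif1a read 48.2 and 49.5 CPM in DBA/2J and 82.2 and 66.7 CPM in C57BL/6J (log2 -0.61 ± 0.12, adjusted p = 0.0227). Eif1ax read 37.9 and 35.1 CPM against 33.7 and 37.8 CPM, with overlapping strains and a log2 of 0.03 ± 0.10 (adjusted p = 0.868). Eif1ad, which encodes a protein with an eIF1A-like domain, read 19.9 and 20.8 CPM against 28.0 and 29.1 CPM (log2 -0.49 ± 0.09, adjusted p = 0.0208). The subunit-joining GTPase Eif5b read 79.0 and 77.4 CPM against 97.2 and 100.4 CPM (log2 -0.34 ± 0.07, adjusted p = 0.0333). Eif5, which triggers GTP hydrolysis by eIF2, did not follow these genes: it read 273 and 271 CPM in DBA/2J, above 257 and 233 CPM in C57BL/6J, and did not pass the test (log2 0.15 ± 0.09, adjusted p = 0.281). Eif6, which holds the large subunit apart from the small, read 50.9 and 45.4 CPM against 61.9 and 49.5 CPM and did not pass either (adjusted p = 0.309). Of the 100-base stretches of Eif1ad transcripts, 11.0% occur identically in Banf1, which was also lower (log2 -0.62, adjusted p = 0.0121). Eif5b shares 11.7% of its stretches with Rev1, which was not called (log2 -0.11, adjusted p = 0.558). What part this sharing has in the calls was not tested.

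The subunits of eIF2 itself showed no call in either direction (0 of 4 by edgeR, 0 at an unadjusted p under 0.05 and 0 by DESeq2), with log2 values from -0.21 to 0.33. Of all tested genes, 18.2% were called by edgeR, and with 4 genes a count of 0 does not set eIF2 apart from that share. The alpha subunit gene Eif2s1, whose product is phosphorylated in stress, read 34.9 and 35.03 CPM in DBA/2J and 37.9 and 42.8 CPM in C57BL/6J. The beta subunit gene Eif2s2 read 54.9 and 56.6 CPM against 58.5 and 59.1 CPM. The gamma subunit, which binds GTP and the initiator tRNA, comes from an X-linked and a Y-linked gene whose coding sequences matched at 86.3% of 1419 aligned bases.

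In these males the Y-linked Eif2s3y carried more mRNA per length than the X-linked Eif2s3x, at 13.9 against 3.15 CPM per kb in DBA/2J and 14.3 against 2.50 CPM per kb in C57BL/6J. Eif2s3x read 11.8 and 12.3 CPM in DBA/2J, above 8.64 and 10.4 CPM in C57BL/6J, and missed the threshold (log2 0.33 ± 0.14, adjusted p = 0.157). Eif2s3y read 53.3 and 62.4 CPM against 60.8 and 57.8 CPM, with overlapping strains (log2 -0.04 ± 0.10, adjusted p = 0.834). Of the 100-base stretches of Eif2s3x transcripts, 33.7% occur identically in Gm2223, which drew 2 to 6 counts per library. Eif2s3y shared none of its stretches with another symbol.

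All 5 subunits of eIF2B, the exchange factor that recycles eIF2, had both DBA/2J libraries below both C57BL/6J libraries, and 2 passed the test. Over all tested genes, 31.2% showed that separation and 8.87% were called lower. Eif2b4, the delta subunit of the regulatory core, read 32.9 and 29.4 CPM against 50.2 and 46.6 CPM, so the C57BL/6J level was 1.55 times that of DBA/2J (log2 -0.64 ± 0.10, adjusted p = 0.0122). Eif2b5, the catalytic epsilon subunit, read 42.1 and 41.7 CPM against 53.4 and 55.3 CPM (log2 -0.37 ± 0.08, adjusted p = 0.0281). The other 3 missed the threshold: log2 was -0.22 for Eif2b1 (alpha), -0.30 for Eif2b2 (beta) and -0.31 for Eif2b3 (gamma), with adjusted p values of 0.131, 0.121 and 0.227. Per length, the 5 subunits ran from 1.70 CPM per kb for Eif2b3 to 18.6 for Eif2b4 in C57BL/6J. Exons of Eif2b4 overlap those of Snx17 on the opposite strand (3.401% of its 100-base stretches), and Snx17 read 19.4 and 18.4 CPM against 27.9 and 20.4 CPM.

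Eif2a and Eif2d encode proteins that can bring a tRNA to the ribosome without eIF2. Eif2a read 30.9 and 32.6 CPM in DBA/2J and 43.2 and 40.2 CPM in C57BL/6J (log2 -0.39 ± 0.09, adjusted p = 0.0352). Eif2d read 41.5 and 41.5 CPM against 40.8 and 45.1 CPM and did not pass (log2 -0.05 ± 0.09, adjusted p = 0.743). Eif2a overlaps Serp1 on the opposite strand, a gene of the endoplasmic reticulum that was also lower, at 329 and 314 CPM against 414 and 425 CPM (log2 -0.38 ± 0.09, adjusted p = 0.0342). Whether reads of one were counted for the other was not tested. The file headers give no option for strand or for overlapping genes.

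In the scaffold eIF3, 6 of 14 rows were lower and 1 was higher, with a median log2 of -0.30, and 11 of 14 reached an unadjusted p under 0.05. Both DBA/2J libraries lay below both C57BL/6J libraries in 11 rows. Of all tested genes, 31.2% were separated in that direction, 8.87% were called lower and 9.29% higher. Eif3e, a subunit of the outer scaffold, read 54.6 and 57.5 CPM against 77.6 and 83.9 CPM (log2 -0.53 ± 0.08, adjusted p = 0.0136). Eif3d, a subunit that can itself bind the mRNA cap, read 32.9 and 34.3 CPM against 47.7 and 49.9 CPM (log2 -0.54 ± 0.08, adjusted p = 0.0123). The mRNAs of Eif3e and Eif3d were thus each at about 0.69 of their C57BL/6J level in DBA/2J. Of Eif3d's 100-base stretches, 32.0% occur in Gm17638 on the opposite strand, which drew 37 to 78 counts per library. Eif3m, another scaffold subunit, read 47.2 and 48.1 CPM against 66.8 and 67.7 CPM (log2 -0.50 ± 0.08, adjusted p = 0.0120). Eif3k, a peripheral subunit, read 36.8 and 37.0 CPM against 55.5 and 49.2 CPM (log2 -0.50 ± 0.09, adjusted p = 0.0202). Eif3g, an RNA-binding subunit near the mRNA entry channel, differed less, at 50.9 and 49.8 CPM against 67.5 and 62.0 CPM (log2 -0.36 ± 0.08, adjusted p = 0.0377).

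The other 7 eIF3 rows did not pass the test. Eif3a, the largest, read 188 and 196 CPM in DBA/2J and 167 and 175 CPM in C57BL/6J, the opposite direction to the called subunits (log2 0.17 ± 0.08, adjusted p = 0.19). Eif3b, which carries a propeller domain, read 113 and 106 CPM against 131 and 132 CPM (log2 -0.26 ± 0.08, adjusted p = 0.0697), and its partner Eif3i read 65.005 and 66.9 CPM against 77.6 and 81.3 CPM (log2 -0.27 ± 0.08, adjusted p = 0.0658). Eif3c overlapped between strains, at 137 and 127 CPM against 133 and 138 CPM. The scaffold subunits Eif3f, Eif3h and Eif3l had log2 values of -0.33, -0.24 and -0.21 with adjusted p values of 0.0807, 0.091 and 0.177. Per length, rows other than Eif3j2 ran from 3.71 CPM per kb of exon for Eif3j1 to 76.3 for Eif3h in C57BL/6J. Part of the Eif3j1 reads cannot be assigned with certainty, and apart from the Eif3j rows the lowest was Eif3k at 19.4.

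The loosely attached subunit eIF3j, which sits in the mRNA entry channel, is listed under a pair of symbols that moved in opposite directions. Eif3j1 (chromosome 2, 122028546 to 122056598, plus strand) had 451 and 491 counts in DBA/2J and 1065 and 1066 in C57BL/6J, or 9.35 and 8.88 CPM against 21.9 and 21.4 CPM (log2 -1.25 ± 0.11, adjusted p = 0.0022). Eif3j2 (chromosome 18, 43475418 to 43477796, minus strand) had 352 and 462 counts in DBA/2J and 6 and 4 in C57BL/6J, or 7.30 and 8.35 CPM against 0.123 and 0.0801 CPM. Its log2 of 6.24 ± 0.30 (adjusted p = 0.0005) was the highest of the 59, and it passed the filter on its DBA/2J counts alone, so a difference was built into its being tested. The 2 symbols are close to one sequence in the reference: their coding sequences were identical over all 784 aligned bases, and 84.0% of the 100-base stretches of Eif3j2 and 33.4% of those of Eif3j1 occur in the other. Reads that fall there cannot be assigned to 1 of them with certainty.

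Added together, an analysis chosen after the values were seen, Eif3j1 and Eif3j2 had 803 and 953 counts in DBA/2J and 1071 and 1070 in C57BL/6J, or 16.6 and 17.2 CPM against 22.0 and 21.4 CPM. The summed log2 was -0.36 ± 0.10, with an adjusted p of 0.0545, and between 0.0307 and 0.335 with each library left out in turn. So the summed row differed by less than either of its parts and did not pass the threshold. What share of the DBA/2J reads comes from each locus was not tested. Both rows rest on reads of DBA/2J placed on a genome derived from C57BL/6J.

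**Figure D2:**
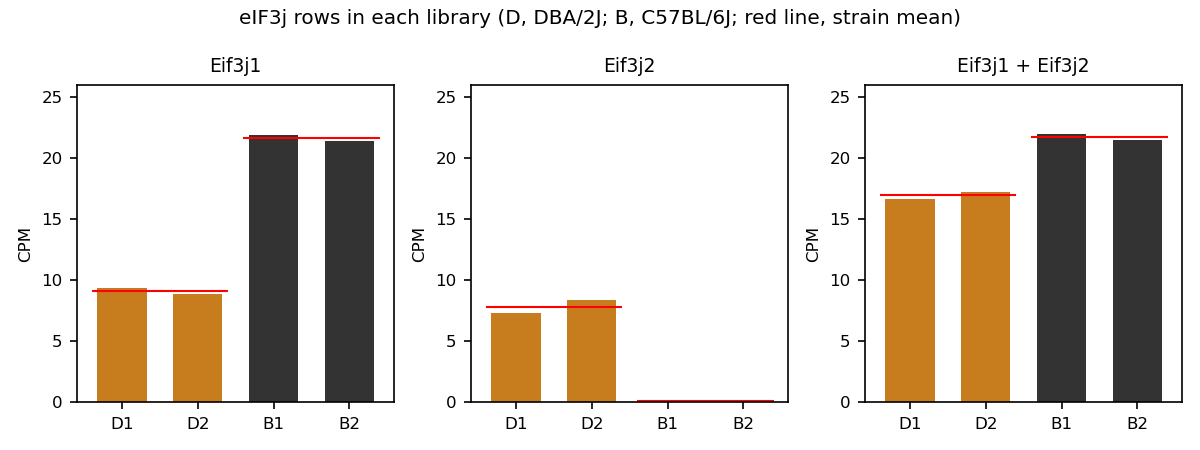
CPM of Eif3j1, Eif3j2 and their summed counts in each library (bars; D, DBA/2J; B, C57BL/6J), with the mean of each strain as a red line. DBA/2J shows both rows at 7.30 to 9.35 CPM, C57BL/6J shows Eif3j1 at 21.4 and 21.9 CPM and almost no Eif3j2, and the summed bars lie at 16.6 to 22.0 CPM.

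Of the cap-binding and helicase factors, 3 of 11 tested genes were lower and 1 higher, with a median log2 of -0.13. The shares over all tested genes were 8.87% and 9.29%. Eif4a1, the main RNA helicase that unwinds leaders for scanning, read 177 and 185 CPM in DBA/2J and 273 and 266 CPM in C57BL/6J (log2 -0.57 ± 0.08, adjusted p = 0.0096). Its paralog Eif4a2 read 204 and 212 CPM against 261 and 266 CPM (log2 -0.34 ± 0.08, adjusted p = 0.0391). Their coding sequences matched at 78.6% of aligned bases. Eif4a3, the related helicase of the exon junction complex, read 32.8 and 28.9 CPM against 38.4 and 38.9 CPM and missed the threshold (log2 -0.32 ± 0.10, adjusted p = 0.0721). For Eif4a1, 22.6% of 100-base stretches recur in other symbols, mainly the pseudogene Eif4a-ps4, which drew only 46 to 57 counts per library.

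Of the helicase's cofactors and scaffolds, 1 of 5 was called, beside 18.2% of all tested genes. Eif4g3, one of the scaffolds that tie the cap-binding protein to the helicase, had 7272 and 7529 counts in DBA/2J and 3754 and 4347 in C57BL/6J, or 151 and 136 CPM against 77.03 and 87.1 CPM. It was higher in DBA/2J by 1.75 times (log2 0.81 ± 0.10, adjusted p = 0.0070), and apart from Eif3j2 it was the only one of the 59 called higher. Eif4g1, the most abundant scaffold per length in both strains, read 703 and 637 CPM against 529 and 615 CPM, above in both DBA/2J libraries but short of the threshold (log2 0.23 ± 0.12, adjusted p = 0.239). Eif4g2, which lacks the cap-binding protein's docking site, read 547 and 536 CPM against 571 and 553 CPM (log2 -0.05 ± 0.09, adjusted p = 0.718). The helicase cofactors Eif4b and Eif4h had log2 values of 0.02 and -0.13 and did not pass (adjusted p = 0.901 and 0.288).

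Among the cap-binding proteins, Eif4e3, an atypical family member of low level, had 109 and 131 counts in DBA/2J and 251 and 238 in C57BL/6J (log2 -1.10 ± 0.19, adjusted p = 0.0156). The C57BL/6J level was 2.14 times that of DBA/2J. Eif4e itself, the cap-binding subunit that is usually limiting, read 35.8 and 35.3 CPM against 40.8 and 42.6 CPM, with separate strains but an adjusted p of 0.107 (log2 -0.23 ± 0.08). Eif4e2, a homologue that takes part in repression, read 54.7 and 55.5 CPM against 64.5 and 53.8 CPM, with overlapping strains. Eif4e1b, a form known from oocytes, had 0 counts in all 4 libraries and was not tested.

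The eIF4E-binding proteins Eif4ebp1 to Eif4ebp3 keep eIF4E from the scaffold until mTORC1 phosphorylates them, and Eif4enif1 binds eIF4E in another role. Of these 4 genes, 1 was called, Eif4ebp3, beside 18.2% of all tested genes. It had 100 and 147 counts in DBA/2J and 256 and 360 in C57BL/6J, or 2.07 and 2.66 CPM against 5.25 and 7.21 CPM (log2 -1.39 ± 0.24, adjusted p = 0.0177), the lowest log2 of the 59. Its exons overlap those of Ankhd1, and 62.8% of its 100-base stretches recur in AC115631.1. Ankhd1 lay on the other side, at 69.8 and 71.5 CPM against 62.6 and 55.1 CPM (log2 0.26 ± 0.09, adjusted p = 0.106). Eif4ebp2, the most abundant of the group per length at 73.8 CPM per kb in DBA/2J and 65.2 in C57BL/6J, read 434 and 419 CPM against 384 and 369.8 CPM and did not pass (log2 0.18 ± 0.09, adjusted p = 0.208). Eif4ebp1 overlapped between strains, at 45.9 and 43.8 CPM against 44.8 and 40.4 CPM (adjusted p = 0.598). Eif4enif1, which carries eIF4E into the nucleus, overlapped as well, at 29.7 and 31.0 CPM against 31.7 and 27.4 CPM (adjusted p = 0.82).

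In elongation, the 3 subunits of the exchange complex eEF1B were called lower in DBA/2J, as 8.87% of all tested genes were, while Eef1a1 and Eef2 were not called. Whether the subunits differ from Eef1a1 or Eef2 in this was not tested. Eef1b2, the beta subunit that reloads eEF1A with GTP, read 111 and 110.3 CPM in DBA/2J and 182 and 172 CPM in C57BL/6J (log2 -0.68 ± 0.08, adjusted p = 0.0052). The C57BL/6J level was 1.603 times that of DBA/2J, and the CPM means were 111 ± 0.526 and 177 ± 7.12 (SD, n = 2 each). Eef1d, the delta exchange subunit, read 67.5 and 71.7 CPM against 105 and 96.1 CPM (log2 -0.53 ± 0.09, adjusted p = 0.0142). Eef1g, the structural gamma subunit, differed less, at 103 and 102 CPM against 126 and 126 CPM (log2 -0.30 ± 0.07, adjusted p = 0.0423). All 3 subunits of the complex thus lay below in both DBA/2J libraries, as 31.2% of all tested genes did. Of Eef1g's 100-base stretches, 32.4% recur elsewhere, chiefly in Gm4366, which drew 36 to 60 counts per library.

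Eef1a1 and Eef2 were by far the most abundant of these genes and together made up 41.4% to 42.9% of all their counts. Eef1a1, which delivers tRNA, stood at 988 CPM per kb of exon in DBA/2J and 1087 in C57BL/6J, and Eef2, the translocase, at 488 and 468. Eef1a1 read 2501 and 2423 CPM in DBA/2J, below 2698 and 2724 CPM in C57BL/6J, but the difference was within its fitted error (log2 -0.14 ± 0.15, adjusted p = 0.556). Eef2 read 1695 and 1548 CPM against 1589 and 1523 CPM, with overlapping strains (log2 0.06 ± 0.13, adjusted p = 0.782). Eif5a, which carries the modified lysine hypusine and keeps ribosomes from stalling, read 319 and 298 CPM against 399 and 382 CPM and fell just short of the threshold (log2 -0.34 ± 0.09, adjusted p = 0.0517). The scarce paralog Eif5a2 had 9 and 9 counts against 11 and 5 and was not tested.

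The muscle and nerve form Eef1a2 had 1 and 21 counts in DBA/2J and 21 and 1 in C57BL/6J, so 1 library of each strain carried nearly all of them (log2 -0.09 ± 1.26, adjusted p = 0.968). The skeletal muscle genes Acta1, at 0 and 0.235 CPM against 0.328 and 0.02004 CPM, and Ckm, at 0 and 0.127 CPM against 0.205 and 0.0401 CPM, were high in the same 2 libraries. Of the other muscle markers, Myh4 had 2 and 0 counts against 0 and 1, and Tnnt3 had 0 in every library. All 4 summed to 0.0415 to 0.533 CPM. Of 4 neuronal markers, Rbfox3 was also high in those libraries, with 11 and 33 counts against 23 and 9, while Snap25 and Tubb3 had at most 5 counts in any library. The neuronal marker Syt1 had 1071 and 1056 counts against 825 and 789, which does not follow Eef1a2. The part of muscle or nerve tissue in the Eef1a2 counts was not tested.

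**Figure D3:**
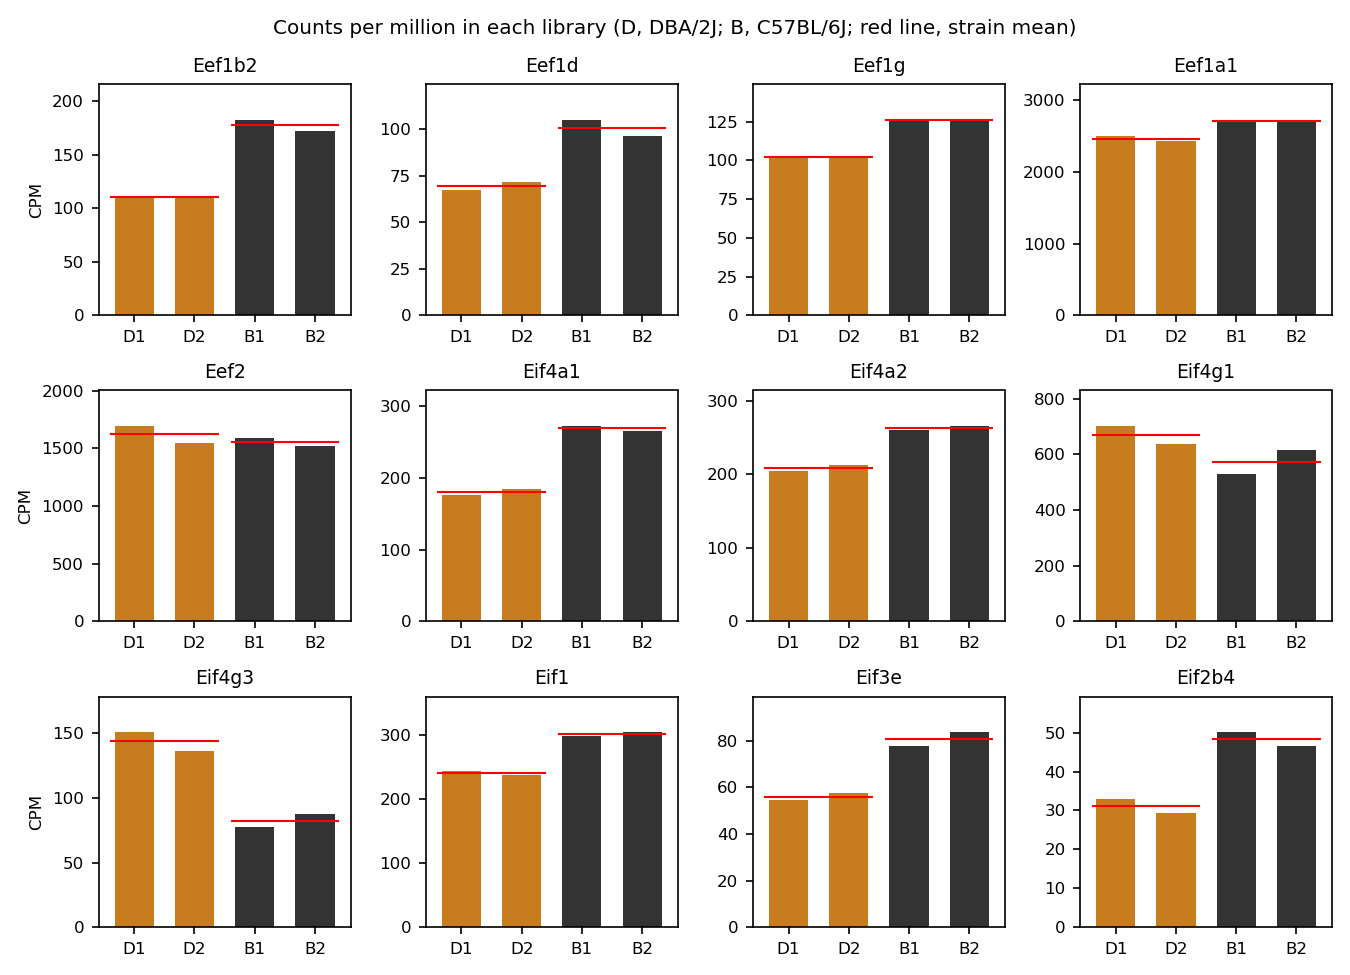
CPM of 12 factor genes in each library (bars; D, DBA/2J; B, C57BL/6J), with each strain's mean as a red line; each panel has its own axis from 0. The 3 eEF1B subunits, Eif4a1, Eif4a2, Eif1, Eif3e and Eif2b4 are lower in both DBA/2J libraries and Eif4g3 is higher, while Eef2 overlaps between strains and Eef1a1 and Eif4g1 did not pass the test.

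The genes whose products modify or accompany elongation factors showed no call (0 of 4 by edgeR, 1 at an unadjusted p under 0.05 and 0 by DESeq2). Of all tested genes, 18.2% were called by edgeR, and 4 genes are too few to set this group apart from that share. Eef1e1, a component of the tRNA synthetase complex named for its likeness to elongation factor subunits, came nearest, at 6.88 and 8.39 CPM against 10.4 and 11.0 CPM (log2 -0.48 ± 0.15, adjusted p = 0.0794). Eef2k, the kinase that switches eEF2 off, overlapped between strains, at 14.97 and 18.1 CPM against 14.7 and 17.7 CPM (adjusted p = 0.895). The methyltransferase genes Eef1akmt1 and Eef2kmt, which act on eEF1A and eEF2, had log2 values of 0.32 and 0.05 and did not pass (adjusted p = 0.192 and 0.866). The symbol Eif2c5, which the rule also takes in, is an older name of the Argonaute kind and not a translation factor; it had 0 counts in all 4 libraries.

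**Figure D4:**
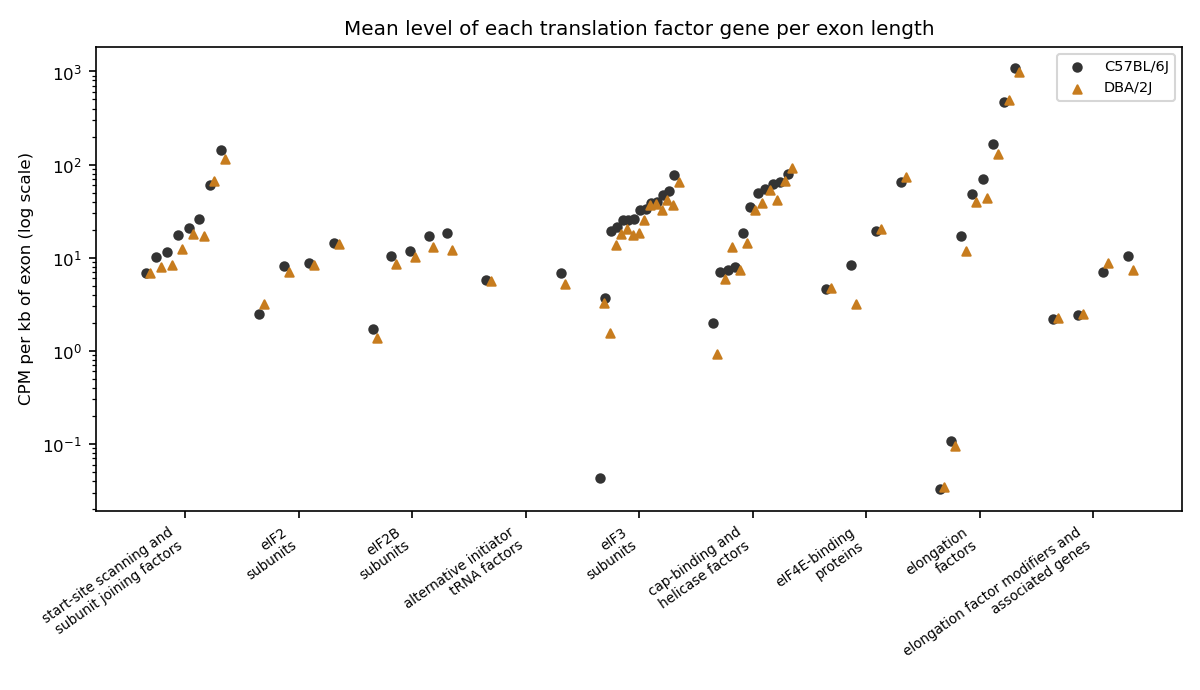
Mean level of each factor gene in CPM per kb of exon (log axis), by role, with dots for C57BL/6J and triangles for DBA/2J; genes at 0 are not drawn. Eef1a1 (1087 in C57BL/6J) and Eef2 (468) stand above all others. In C57BL/6J, eIF3 rows other than Eif3j2 lie between 3.71 (Eif3j1) and 76.3, and the eIF2B subunits between 1.70 and 18.6.

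The called genes were compared with features that the choice by symbol did not use. The 21 lower genes had shorter exons (median 2599 bases) than the 36 tested genes not called (3757). Of the 2 higher genes, Eif3j2 had 2379 bases, near the lower quartile of the 59 (2378), and Eif4g3 had 11063. Across the 59 genes, log2 and exon length had a Spearman rho of 0.33, and across the 15588 other tested genes 0.17; genes are not independent replicates, and they share the same 4 libraries. Of other genes in the middle range of these lengths, 2378 to 5667.5 bases, 8.58% were lower. Of other genes with C57BL/6J levels in the middle range of the 59, 30.1 to 133 CPM, 14.0% were lower and 9.80% higher. These shares are lower than the 35.6% above, but genes of one functional group vary together and no test of the group was made.

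Sharing of exons with another symbol moved with the calls. Of the 20 genes whose exons overlap another symbol's, 12 were lower (60%) and 1 higher, and of the 39 tested genes without such overlap 9 were lower (23.1%) and 1 higher. Over all tested genes the shares lower were 9.09% with and 8.76% without overlap. Among the 59, 28 shared no 100-base stretch with another symbol and 16 shared more than 5% of theirs, 10 of which were lower. What part overlap has in these calls was not tested.

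Of the genes, 9 are known as TOP mRNAs, whose leaders begin with a run of pyrimidines and whose translation mTORC1 controls: Eef1a1, Eef1b2, Eef1d, Eef1g, Eef2, Eif3e, Eif3f, Eif3h and Eif4b. Of these, 4 were lower and 0 higher by edgeR, beside 8.87% and 9.29% of all tested genes, with a median log2 of -0.30. The lower ones were the 3 eEF1B subunits and Eif3e, described above. Eef2 and Eif4b, at 0.06 and 0.02, stood near 0. Of 87 tested genes with cytoplasmic ribosomal protein symbols, which include some like-named genes, 73 were lower and 0 higher, with a median log2 of -0.56.

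Genes that act on these factors were called in both directions. Of 10 mTORC1 and S6 kinase genes, the kinase Mtor itself was higher in DBA/2J, at 102 and 90.005 CPM against 69.2 and 70.5 CPM (log2 0.46 ± 0.09, adjusted p = 0.0247). Its upstream inhibitor Tsc1 was higher too, at 52.7 and 47.1 CPM against 33.04 and 35.6 CPM (log2 0.54 ± 0.10, adjusted p = 0.0188). The S6 kinase gene Rps6kb2 was lower, at 18.7 and 19.5 CPM against 29.2 and 27.9 CPM (log2 -0.58 ± 0.09, adjusted p = 0.0134). The other 7, among them Rptor (log2 0.31, adjusted p = 0.102), did not pass.

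Of 9 genes for eIF2 kinases and the phosphatase that opposes them, 1 was lower and 1 higher. The stress-induced phosphatase subunit Ppp1r15a read 12.5 and 11.9 CPM against 22.6 and 16.7 CPM (log2 -0.69 ± 0.17, adjusted p = 0.0419), and the amino acid sensing kinase Eif2ak4 read 14.5 and 14.1 CPM against 10.4 and 10.5 CPM (log2 0.45 ± 0.11, adjusted p = 0.0443). Of 9 genes for poly(A)-binding proteins and their partners, 1 was lower, Paip1, which links the poly(A)-binding protein to the helicase (log2 -0.42 ± 0.09, adjusted p = 0.0323). Of 9 termination and recycling genes, 2 were lower, Mcts1 and Denr, whose products form a pair that acts on ribosomes after termination (log2 -0.44 and -0.43, adjusted p = 0.0234 and 0.0291).

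Of 8 genes for the enzymes that make hypusine on eIF5A and diphthamide on eEF2, 2 were lower and 1 higher. Dhps, which makes the first step of hypusine, read 7.05 and 8.01 CPM against 12.1 and 10.6 CPM (log2 -0.59 ± 0.15, adjusted p = 0.0446). In the diphthamide pathway Dph3 was lower (log2 -0.58 ± 0.12, adjusted p = 0.0258) and Dph1 higher (log2 0.46 ± 0.11, adjusted p = 0.0442). In each of these 5 lists the counts in either direction were between 0 and 2, against shares of 8.87% and 9.29% of all tested genes.

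The calls rested on having both DBA/2J libraries. Without DBA/2J replicate 1, 0 of the 21 lower genes was called by edgeR (adjusted p from 0.0544 to 0.283; 19 at an unadjusted p under 0.05), while 1.79% of all tested genes were called. Without DBA/2J replicate 2, 0 was called as well (adjusted p from 0.0578 to 0.284; 17 at an unadjusted p under 0.05), beside 1.92% of all tested genes. DESeq2 was not run on these reduced sets. Eif3j2 alone of the 59 stayed called in both fits, with log2 values of 6.31 and 6.13. It had passed the filter on its DBA/2J counts alone, and its reads cannot all be assigned with certainty. The calls of the 5 lists of related genes above were all lost in both fits. All 21 lower genes kept a log2 below 0 with each of the 4 libraries left out.

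Leaving out a C57BL/6J library added calls. Without C57BL/6J replicate 1, the library with high acute-phase genes, all 21 stayed lower, 25 were lower in all and 2 higher, beside 24.2% of all tested genes called. The added genes were Eif3i, Eef1e1, Eif2s1 and Eif2b2. Without C57BL/6J replicate 2, all 21 again stayed lower, 25 were lower and 3 higher, beside 29.9% of all tested genes. The added genes were Eif6, Eif3f, Eif3h and Eif5a, lower, and Eif2s3x, higher. A strain left with 1 library is assumed in these fits to vary like the other.

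**Figure D5:**
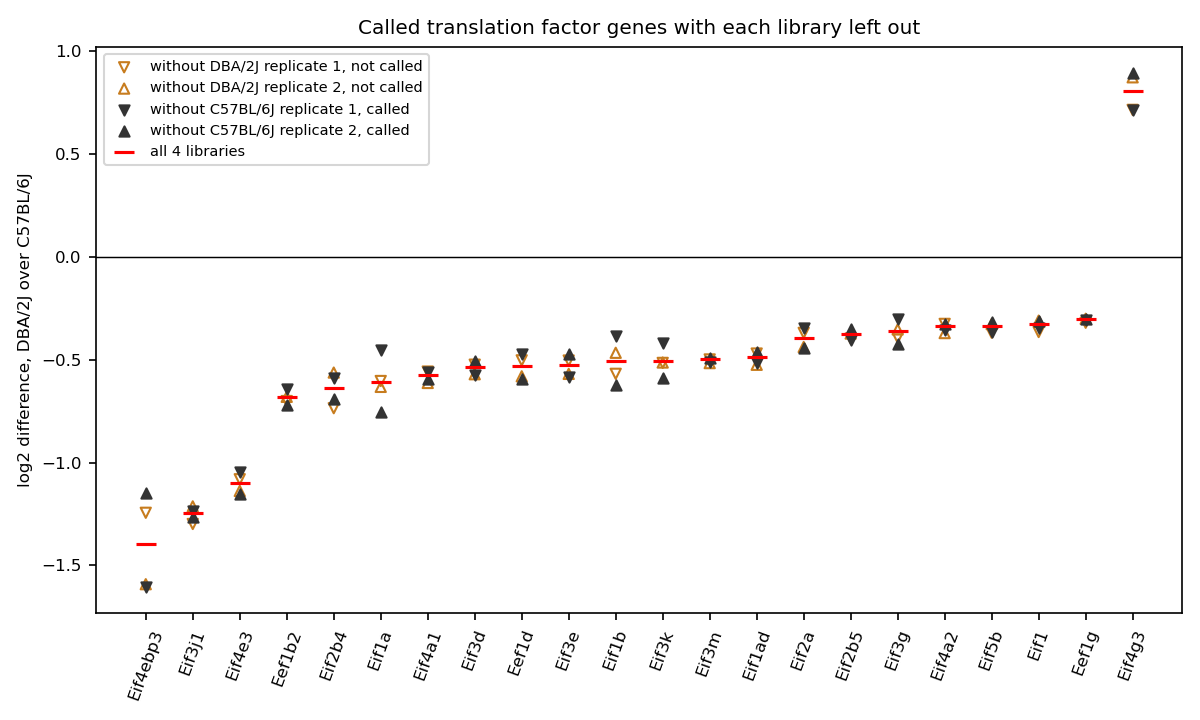
Fitted log2 difference of each called factor gene other than Eif3j2, with all 4 libraries (red bars) and with each library left out (triangles; filled where still called at an adjusted p below 0.05, open where not). Every gene keeps its direction in all 4 reduced fits, and calls are lost where a DBA/2J library is left out.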

How the data were processed

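Each deposited value is a whole-number count of reads for a gene symbol, without normalisation. The file headers record featureCounts 2.0.1 on the Ensembl 88 annotation of GRCm38, with exons combined by gene name. Per the file headers a paired-end flag was set although the labels state single-end reads, and no option for strand, multiple alignments or overlapping genes appears. The submitters' processing notes name STAR 2.4.0g1 and featureCounts 1.5.2.

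Counts were tested with edgeR 4.0.16 (R 4.3.3; glmQLFit with legacy=FALSE, glmQLFTest, TMM, filterByExpr with a minimum count of 10, strain as the sole term). P-values were adjusted by Benjamini-Hochberg over all 15647 tested genes and called below 0.05; SE derive from the F statistic. The fit was tested on simulated data. Alternatives included DESeq2 1.42.0. Identical 100-base stretches were sought between GENCODE M21 transcripts, and coding sequences aligned with blastn 2.17.0. Exon lengths and coordinates are the files' own, in GRCm38.

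The genes, roles and lists were chosen with earlier results of these data known. Named were all called genes, the most abundant per length of each role, paralog pairs, untested genes and those of lowest adjusted p in other lists. Libraries with equal replicate numbers had deviations from their strain means that correlated at -0.064. With 2 libraries per strain this cannot show whether those mice were processed together.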

Additional observations from a re-analysis of the deposited data

How the results depend on the processing

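The count of lower genes depended on several choices. Of the 21, 13 were called with library totals in place of TMM (which moved the median of all genes by 0.08), 10 with no filter on low counts, 13 with the replicate block and 9 when genes overlapping another symbol were left out; with each library left out the count ran from 0 to 25. RLE size factors gave 21, DESeq2 22 (adding Eif5a) and edgeR's older fit 20. The 2 higher became 1 when overlapping genes were left out or the Eif3j rows summed, and 1 to 3 with a library left out. The median log2 of -0.24 became -0.16 with library totals, -0.21 without overlapping genes, and -0.29 to -0.22 with a library left out. Over all genes, 1454 were higher and 1388 lower; no filter gave 809 and 707, the replicate block 1220 and 1175, library totals 1924 and 1024, and leaving out a library 186 to 2450 and 106 to 2455. Nothing states that equal replicate numbers in the titles pair these mice, so the block is given only as a number. Of 590 values of the 59 tested genes under these alternatives, 21 took the other sign, in 13 genes (Eef1a2, Eef2, Eef2k, Eef2kmt, Eif1ax, Eif2d, Eif2s2, Eif2s3y, Eif3c, Eif4b, Eif4e2, Eif4enif1 and Eif4g2); 0 of the 13 was called with all libraries, and 0 of the 21 values passed the threshold. Causes of these changes were not tested. Each strain had 2 libraries, which limits the precision of the estimated spread.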

Other observations

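The enzymes that load tRNA with amino acids for these factors were lower in part. Of 22 cytoplasmic aminoacyl-tRNA synthetase genes, 4 were lower in DBA/2J and 0 higher by edgeR, beside 8.87% and 9.29% of all tested genes (11 at an unadjusted p under 0.05, 4 called by DESeq2), with a median log2 of -0.23. Wars, the tryptophan enzyme, read 19.2 and 19.0 CPM in DBA/2J and 32.9 and 31.2 CPM in C57BL/6J (log2 -0.74 ± 0.09, adjusted p = 0.0065). Qars, the glutamine enzyme, read 54.0 and 55.1 CPM against 71.0 and 73.5 CPM (log2 -0.41 ± 0.08, adjusted p = 0.0212). Aimp1, a scaffold of the synthetase complex, and Farsb, a subunit of the phenylalanine enzyme, had log2 values of -0.40 and -0.45 (adjusted p = 0.0429 and 0.0442). Without either DBA/2J library these calls were lost (0 of 22), and without C57BL/6J replicate 1 or 2, 7 were lower, with 0 and 1 higher.

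Of 11 genes for factors of mitochondrial translation, 0 were called by edgeR, beside 18.2% of all tested genes. Of the 11, 2 reached an unadjusted p under 0.05 and 0 were called by DESeq2, with a median log2 of -0.01. Nearest were Mrrf, the ribosome recycling factor (log2 -0.28 ± 0.09, adjusted p = 0.0902), and Mtif3, an initiation factor (log2 0.43 ± 0.16, adjusted p = 0.114). Whether this list differs from the cytoplasmic factors was not tested.

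A list of 18 genes held Atf4 itself and genes known as targets of ATF4, the transcription factor translated when eIF2 is phosphorylated. Of the 18, 16 were tested, and 2 were lower and 0 higher by edgeR (10 at an unadjusted p under 0.05), beside 8.87% and 9.29% of all tested genes. DESeq2 called 5 lower and 3 higher. Asns, which makes asparagine, read 0.518 and 0.416 CPM in DBA/2J and 2.196 and 3.41 CPM in C57BL/6J (log2 -2.59 ± 0.36, adjusted p = 0.0092). Cebpb, a transcription factor gene, read 16.7 and 14.99 CPM against 60.8 and 31.2 CPM (log2 -1.54 ± 0.31, adjusted p = 0.0247). The highest Cebpb value was in C57BL/6J replicate 1, where acute-phase genes were high. Without that library the log2 of Cebpb was -0.98, and the part of the acute-phase state in the difference was not tested. With DBA/2J replicate 1 left out 0 of the list was called, and with replicate 2 left out 1 was lower. Without C57BL/6J replicate 1, 3 were lower and 1 higher, and without replicate 2, 8 were lower and 3 higher. Fgf21, a liver hormone gene, lay on the other side, at 1.97 and 3.20 CPM against 0.554 and 1.22 CPM (log2 1.54 ± 0.44). It missed the threshold in edgeR's fit (adjusted p = 0.065) and passed it in DESeq2 (0.0161), with the replicate block (0.0248) and without C57BL/6J replicate 2 (0.0076). Its highest adjusted p with a library left out was 0.345.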
